A study of Mus musculus with 10 samples.

Results

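The retinas of rd10 mice given halofantrine were compared with wild-type retinas, over all genes of the deposited table, to ask which changes of the degenerating retina were still present under the drug. The comparison held 6 of the 10 libraries of the series: 3 halofantrine-treated rd10 libraries (H1 to H3) and 3 of the 4 wild-type libraries (W1 to W3). The 3 rd10 libraries given DMSO (D1 to D3) are set beside them. Of the 11702 genes in the table, 11699 passed the filter on low counts and were tested. The fourth wild-type library, W4, was left out by the rule of the comparison because it held few rod transcripts, so the WT libraries were selected on the measured levels of rod transcripts. Transcripts of rods, cones and the photoreceptor synapse are therefore described by their levels and differences with no p-value against WT, although they enter the counts over all genes, and every p-value of another gene against WT holds only without W4. With W4 included, 1 gene was called in place of 8408.

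All mice were females. The rd10 mice were of the line B6.CXB1-Pde6brd10/J, which carries a mutation of Pde6b, the gene of the beta subunit of the rod phosphodiesterase. The wild-type mice are labelled WT. Each mouse had intravitreal injections of 1 μL at postnatal days 10 and 24, of 20 μM halofantrine (rd10 HAL) or of DMSO (rd10 DMSO and WT), and retinas were collected at day 36. The labels do not say whether each library came from a separate mouse, so the p-values measure the spread between libraries. An untreated rd10 retina and a wild-type retina with halofantrine are not part of the design, so the drug was seen only in the mutant. Whole retina was sequenced after poly(A) selection with 15512212 to 38160436 estimated counts per library. All WT libraries, D1, D2 and H1 are labelled batch 1, and D3, H2 and H3 batch 2, so genotype cannot be told apart from batch for the batch 2 libraries. Within batch 1 the titles put W1 to W3 in set1 and D1, D2 and H1 in set2, so genotype cannot be told apart from set there either. Within batch 2 the titles name D3 final and H2 and H3 last, so drug and title cannot be told apart there.

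Halofantrine is an antimalarial drug. In rd10, rods fail to hydrolyse cGMP and die early, cones survive longer and are lost later, and Müller glia and microglia become reactive around the dying cells. In whole-tissue RNA, loss of an abundant cell type raises the share of every remaining cell type, and fewer cells of a type and less RNA per cell cannot be told apart.

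With halofantrine, 8408 genes differed from WT at an adjusted p under 0.05 (edgeR quasi-likelihood test with Benjamini-Hochberg adjustment), which is 71.9% of the genes tested. Of these, 4177 were higher (35.7%) and 4231 lower (36.2%). A change of at least 2-fold was called for 1366 genes (11.7%), 628 higher (5.37%) and 738 lower (6.31%). The median log2 fold change over all genes was -0.01. The scale of the comparison set the balance between higher and lower genes. Scaled by library size alone, the median moved to 0.19 and 5967 genes were higher against 2447 lower. Scaled to 31 genes of inner retinal neurons, whose median was 0.77 higher in rd10 HAL, the median was -0.79 and 620 genes were higher against 9272 lower. Fold changes below are relative to the retina's total mRNA (TMM scale) unless stated, and levels are CPM, each count relative to the library's TMM-scaled total.

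Pde6b, the mutated gene, read 2699, 2850 and 2855 CPM in WT, 133, 157 and 387 in rd10 DMSO and 125, 373 and 249 in rd10 HAL. W4 read 93.1 CPM, below every rd10 library, although its label is WT. The rd10 mutation changes the Pde6b protein, so the transcript level does not check the genotype.

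The rod transcripts remained at low levels under halofantrine. Over all genes, 6.31% were called at least 2-fold lower than in WT. All 13 genes of the rod list and all 30 genes shared by rods and cones were at least 2-fold lower. Their median log2 fold changes were -3.20 and -2.40 with the drug and -3.29 and -2.58 with DMSO, beside -0.01 over all genes in either comparison. Gnat1, the rod transducin alpha subunit, read 14990, 14670 and 16100 CPM in WT. It read 758, 820 and 2025 CPM in rd10 DMSO and 728, 1745 and 1404 CPM in rd10 HAL. Both rd10 groups were far below WT and overlapped each other, and within each the batch 2 libraries were the higher ones. Reep6, a rod protein of the endoplasmic reticulum, read 898, 910 and 988 CPM in WT, 54.9, 52.6 and 122 CPM in rd10 DMSO and 57.5, 144 and 115 CPM in rd10 HAL. In batch 1, where 1 rd10 HAL library and both rd10 DMSO libraries can be compared directly, Reep6 read 57.5 CPM in H1 beside 54.9 and 52.6 CPM in D1 and D2. The 3 batch 2 values were 122 CPM in D3 and 144 and 115 CPM in H2 and H3, so the higher levels moved with the batch label in both treatments.

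The promoters of 2 photoreceptor genes are shown because they hold a short motif whose share among promoters is given after them. Rbp3, the retinoid carrier of the interphotoreceptor matrix, read 5324, 5277 and 6616 CPM in WT and 1396, 1949 and 1798 CPM in rd10 HAL. Sag, rod arrestin, read 4762, 5235 and 5063 CPM in WT and 620, 1490 and 991 CPM in rd10 HAL. The capitals mark the letters TAATCC, the core read by homeodomain factors such as CRX, found here on the other strand as GGATTA. The windows run from 250 bases before to 50 bases after the annotated start (RefSeq, GRCm38.p6): chr14:33953753-33954052 on the plus strand for Rbp3 and chr1:87803430-87803729 on the plus strand for Sag.

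Rbp3: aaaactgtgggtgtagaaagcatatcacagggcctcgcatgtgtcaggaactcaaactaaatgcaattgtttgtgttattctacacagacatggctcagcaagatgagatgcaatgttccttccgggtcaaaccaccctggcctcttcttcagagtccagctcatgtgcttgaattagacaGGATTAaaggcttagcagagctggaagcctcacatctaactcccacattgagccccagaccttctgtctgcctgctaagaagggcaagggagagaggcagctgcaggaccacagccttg
Sag: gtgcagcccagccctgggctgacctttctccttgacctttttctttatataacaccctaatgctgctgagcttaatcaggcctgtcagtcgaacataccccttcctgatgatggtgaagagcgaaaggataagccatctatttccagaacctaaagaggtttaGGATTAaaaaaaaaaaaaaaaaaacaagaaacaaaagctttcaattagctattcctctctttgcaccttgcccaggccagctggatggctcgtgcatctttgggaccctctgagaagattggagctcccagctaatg

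TAATCC, searched on both strands, was in 7.06% of all promoters of the RefSeq table. It was in 92 of 643 promoters (14.3%) of the genes that were at least 2-fold lower with halofantrine and in 6.46% of those at least 2-fold higher. In the rod and shared photoreceptor lists it was in 14 of 36 promoters (38.9%), from the 31 of 43 genes with a promoter in the table. These shares describe letters in the window and not binding.

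Cone transcripts differed among themselves. Of the 12 cone genes, 9 had a log2 difference from WT above 0 and 3 below it, from -1.04 for Thrb to 0.79 for Pde6c, with a median of 0.21 on the TMM scale. That median fell to -0.56 on the inner-neuron scale and was -0.01 in batch 1 alone. Arr3, cone arrestin, read 482, 499 and 541 CPM in WT, 447, 550 and 491 in rd10 DMSO and 469, 707 and 541 in rd10 HAL. The 3 groups overlapped, and the difference from WT was 0.17 ± 0.13 (SE). Without H1 the difference was 0.30, and on the inner-neuron scale it was -0.599. Pde6c, the cone phosphodiesterase, read 151, 160 and 180 CPM in WT and 266, 291 and 291 in rd10 HAL, a difference of 0.79 ± 0.07 that was 0.02 on the inner-neuron scale. W4 read 263 CPM, with the rd10 libraries. Thrb, the thyroid hormone receptor that sets the M opsin fate, read 115, 108 and 103 CPM in WT and 51.1, 52.0 and 54.8 CPM in rd10 HAL (-1.04 ± 0.06), and W4 read 51.0 CPM.

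Opn1sw, the short-wavelength cone opsin, was among the few disease changes of 2-fold not counted as kept under the drug, and it is singled out here after its values were seen. It read 471, 483 and 535 CPM in WT, 181, 138 and 360 CPM in rd10 DMSO and 187, 364 and 448 CPM in rd10 HAL. Every rd10 library was below every WT library. The difference from WT was -1.12 with DMSO and -0.58 ± 0.26 with halofantrine, and W4 read 242 CPM. The 3 higher rd10 values were the 3 batch 2 libraries. In batch 1 alone the difference was -1.40 with halofantrine, and the direct difference between drug and DMSO with batch as a term was 0.20 with an adjusted p of 0.326. Without H1 the difference was -0.29, and without H3 it was -0.84.

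Of 15 genes of the photoreceptor synapse, 11 had a log2 difference from WT below 0 and 4 above it, from -1.90 for Cplx4 to 0.57 for Dag1, with a median of -0.92 (-0.88 with DMSO). Dmd, dystrophin, whose short retinal forms lie at photoreceptor terminals, read 322, 320 and 338 CPM in WT and 100, 106 and 109 CPM in rd10 HAL (-1.64 ± 0.05), and W4 read 109 CPM. Slc17a7, the vesicular glutamate transporter of photoreceptors and bipolar cells, read 1772, 1822 and 1882 CPM in WT and 702, 829 and 708 CPM in rd10 HAL (-1.29 ± 0.08). Elfn1, the adhesion protein that links rods to rod bipolar cells, read 102, 108 and 101 CPM in WT, 33.0, 33.2 and 21.8 in rd10 DMSO and 33.8, 43.2 and 40.0 in rd10 HAL. The rd10 HAL libraries lay above all rd10 DMSO libraries by 0.40 ± 0.17, at an unadjusted p of 0.0508 and an adjusted p of 0.883 (edgeR). Without D3 the difference was 0.24.

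**Figure D1:**
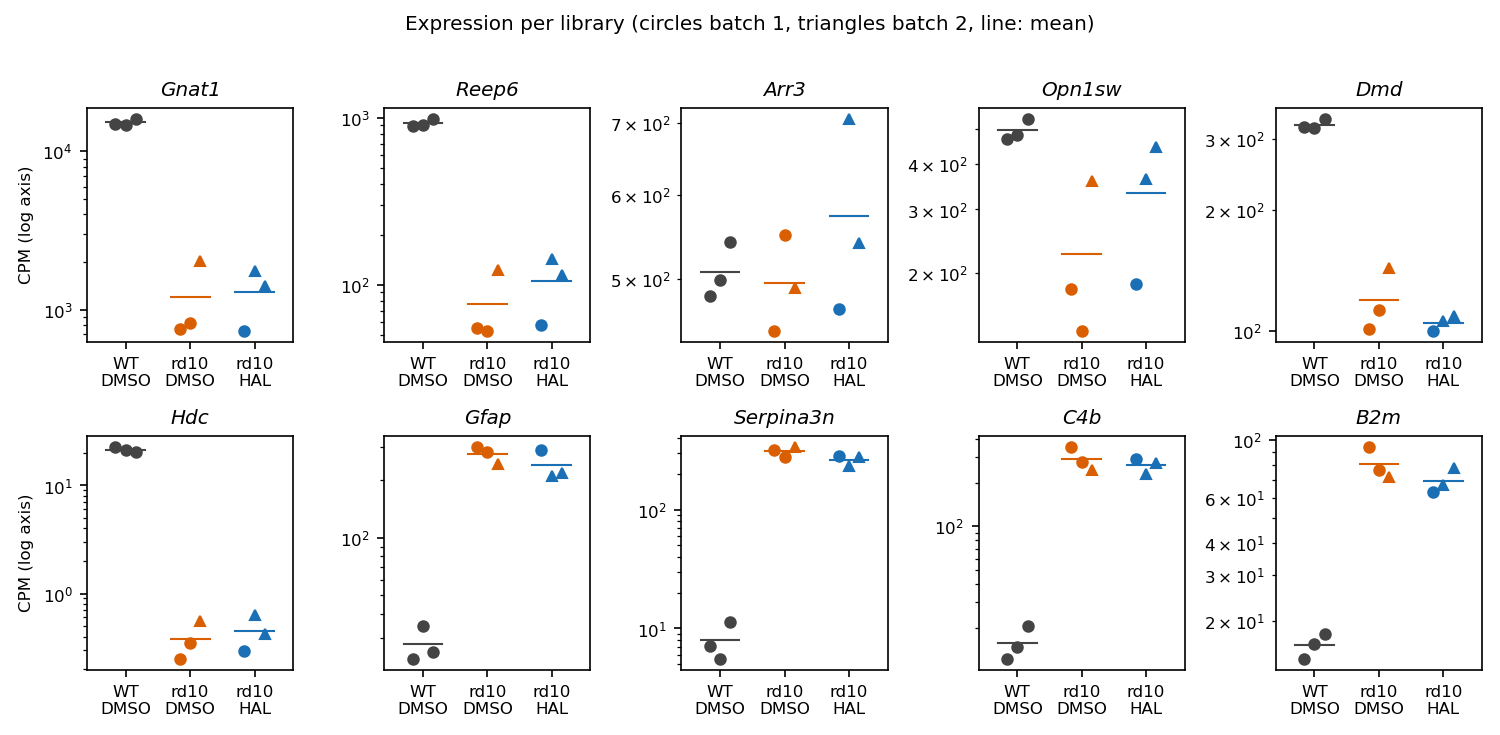
Expression of 10 genes in CPM (log axis) in each library of WT DMSO, rd10 DMSO and rd10 HAL; circles are batch 1, triangles batch 2 and lines group means. Gnat1 and Reep6 were low in both rd10 groups and higher in batch 2, Gfap, Serpina3n, C4b and B2m were high in both, and Arr3 overlapped across groups.

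The neurons behind the photoreceptors took a larger share of the RNA. Of 15 bipolar genes, 13 rose and 1 fell (median 0.89), where 35.7% of all genes rose and 36.2% fell. All 12 amacrine genes tested (median 0.71), all 4 horizontal cell genes (1.12) and all 9 ganglion cell genes tested (0.49) rose, beside the same shares. Outside the gene table and read from transcript counts, Th of the amacrine list overlapped WT. Isl2 and Pou4f3 of the ganglion list were above WT in every rd10 HAL library, as were 37.7% of the genes tested. On the inner-neuron scale, which is built from such genes, the bipolar median was 0.11 and the horizontal cell median 0.35, while the amacrine median turned to -0.07 and the ganglion median to -0.29. Relative to the retina's total, Grik1, a kainate receptor subunit of OFF bipolar cells, rose from 122, 116 and 116 CPM to 259, 260 and 249 CPM. Gpr179, which holds the ON bipolar signalling complex at the dendrite tip, rose by 1.11 ± 0.06. Lrit3, which acts in photoreceptors to organise that same complex across the synapse, was the bipolar-list gene that fell, from 104, 103 and 106 CPM to 41.4, 43.8 and 47.7 CPM (-1.23 ± 0.06).

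Reactive gliosis persisted under halofantrine. All 17 gliosis genes tested rose, 15 of them at least 2-fold, where 35.7% of all genes rose and 5.37% rose at least 2-fold. The list had a median of 2.57 on the TMM scale and 1.80 on the inner-neuron scale. Gfap, the intermediate filament of reactive glia, rose from 23.1, 34.6 and 25.3 CPM in WT to 288, 212 and 219 CPM in rd10 HAL, beside 300, 282 and 243 CPM in rd10 DMSO (3.11 ± 0.17, adjusted p 1.47e-06, edgeR). Serpina3n, an acute-phase protease inhibitor, rose from 7.16, 5.50 and 11.4 CPM to 283, 232 and 275 CPM, 5.06 ± 0.20 on the log2 scale. Stat3, the transcription factor of cytokine signalling in glia, rose from 76.5, 74.7 and 82.3 CPM to 188, 195 and 181 CPM (1.28 ± 0.05). Cd44, a hyaluronan receptor, rose by 2.57 ± 0.10 and Lcn2, an iron-siderophore carrier, by 3.83 ± 0.18. The mean of the list per library was 5.20 to 5.28 log2 CPM in rd10 HAL and 5.29 to 5.43 in rd10 DMSO, against 2.58 to 2.72 in WT. The rd10 groups did not overlap and differed by -0.13. Such a gap between rd10 HAL and rd10 DMSO was seen in the means of 5 of 26 lists (19.2%), beside 13.1% of single genes. It was higher with the drug for ganglion cell (0.11), glycolysis (0.05) and endothelial genes and lower for gliosis and interferon genes.

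The promoter of Gfap is shown because its window holds the letters TTCCNGGAA, the palindrome read by STAT factors, in capitals. The window is chr11:102897151-102897450 on the minus strand (RefSeq, GRCm38.p6).

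Gfap: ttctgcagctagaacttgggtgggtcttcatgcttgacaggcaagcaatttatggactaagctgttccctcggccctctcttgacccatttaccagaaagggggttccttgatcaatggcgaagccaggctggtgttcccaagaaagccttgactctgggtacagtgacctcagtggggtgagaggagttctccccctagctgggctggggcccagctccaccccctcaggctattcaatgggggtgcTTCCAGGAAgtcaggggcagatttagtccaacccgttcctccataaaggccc

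TTCCNGGAA was in 1.15% of all promoters and in 2 of 21 promoters (9.52%) of the gliosis list.

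Genes of the Müller glia list rose as well, 13 of 14 beside 35.7% of all genes, with a median of 0.91. Clu, clusterin, rose from 434, 454 and 542 CPM to 1747, 1555 and 1632 CPM. Apoe, the lipid carrier, rose from 243, 285 and 319 CPM to 974, 1150 and 1068 CPM (1.91 ± 0.11). On the inner-neuron scale the Müller list median was 0.14. Aqp4, the water channel of glial endfeet, rose by 0.79 ± 0.05 on the TMM scale and by 0.02, not called, on the inner-neuron scale.

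Microglial transcripts stayed high. Of the 20 microglia genes, 9 were in the gene table, and each rose at least 2-fold, beside 5.37% of all genes (median 2.37, beside 2.28 with DMSO). C1qa, C1qb and C1qc, the chains of complement C1q, read 3.08 to 4.08 CPM in WT and 18.1 to 26.2 CPM in rd10 HAL, and each rose by 2.37 to 2.65. Ctss, a lysosomal protease of macrophages, rose from 9.87, 7.21 and 7.24 CPM to 42.0, 44.9 and 53.7 CPM. The other 11 members lie outside the gene table and were read from the transcript counts as a description. All 11 had every rd10 HAL library above every WT library, as did 37.7% of the genes tested. Wherever it is given, that share covers genes in the table, and none was computed for genes outside it. Trem2 read 1.99 to 2.10 CPM in WT and 6.37 to 6.50 CPM in rd10 HAL, P2ry12 2.42 to 2.63 and 5.75 to 5.81 CPM, and Tmem119 1.75 to 1.93 and 4.21 to 6.62 CPM. Summed over all 20 genes, microglial markers were 76.3 to 83.7 CPM in WT, 288 to 333 CPM in rd10 DMSO and 290 to 310 CPM in rd10 HAL. The rd10 groups overlapped.

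All 7 phagocyte genes tested rose, beside 35.7% of all genes, with a median of 1.21. Axl, a receptor for dying cells, rose from 14.0, 15.1 and 13.4 CPM to 46.2, 45.6 and 44.1 CPM. Cd63, a lysosomal tetraspanin, read 33.1, 35.5 and 35.6 CPM in WT, 96.7, 73.5 and 89.2 in rd10 DMSO and 69.2, 66.9 and 69.2 in rd10 HAL. Cd63 rose under the drug (0.98 ± 0.05), and its rd10 HAL libraries were all below the rd10 DMSO libraries (-0.34 ± 0.10, unadjusted p 0.0121, adjusted p 0.883, edgeR). Of 9 complement genes in the table, 8 rose at least 2-fold, beside 5.37% of all genes (median 2.65). C4b, which carries the classical cascade forward, rose from 12.1, 14.7 and 20.6 CPM to 291, 230 and 273 CPM (4.08 ± 0.17). C3, the component shared by all complement routes, rose from 2.42, 2.32 and 3.62 CPM to 44.5, 21.3 and 24.4 CPM, with H1 about as high as D2 (47.1 CPM) and the batch 2 libraries H2 and H3 lowest. All 3 phagocyte and all 6 complement genes outside the table were above WT in every rd10 HAL library when read from transcripts, beside 37.7% of the genes tested.

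Antigen presentation and interferon genes rose in both rd10 groups. For MHC class I, 8 of 9 genes in the table rose, beside 35.7% of all genes, with medians of 1.68 with halofantrine and 1.59 with DMSO. H2-K1, a classical class I heavy chain, rose from 17.2, 17.0 and 15.1 CPM to 66.1, 64.0 and 64.5 CPM (1.98 ± 0.07), and reads shared with its near-identical relatives may be split by the counting. B2m, the class I light chain, rose from 14.2, 16.2 and 17.8 CPM to 63.4, 67.4 and 77.9 CPM (2.12 ± 0.10). Nlrc5, the class I transactivator, rose from 1.52, 1.26 and 1.17 CPM to 12.6, 8.60 and 10.8 CPM. For interferon genes, 9 of 10 in the table rose, beside the same share, with medians of 1.09 with halofantrine and 1.52 with DMSO. Oasl2, an interferon-induced antiviral gene, rose from 10.2, 9.73 and 10.6 CPM to 53.3, 41.9 and 45.6 CPM. Ifit3, another, read 41.3, 40.0 and 30.2 CPM in rd10 DMSO and 29.6, 34.0 and 31.3 CPM in rd10 HAL, from 8.77 to 9.45 CPM in WT. Read from transcripts, the members outside the table had every rd10 HAL library above every WT library for 3 of 3 MHC class I and 6 of 8 interferon genes, Ifi44 and Mx1 overlapping, where 37.7% of the genes tested did so. Ifit1 read 1.94, 1.61 and 1.75 CPM in WT, 12.8, 17.1 and 9.72 in rd10 DMSO and 9.37, 9.77 and 10.7 in rd10 HAL. Over the genes in the table, the interferon list mean was 4.54 to 4.66 log2 CPM in rd10 HAL and 4.73 to 4.91 in rd10 DMSO. It lay 0.21 lower with the drug and the groups did not overlap.

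The promoter of B2m is shown for the core of the interferon-stimulated response element in capitals, which is GAAA, any 2 bases and GAAA. The window is chr2:122147437-122147736 on the plus strand (RefSeq, GRCm38.p6).

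B2m: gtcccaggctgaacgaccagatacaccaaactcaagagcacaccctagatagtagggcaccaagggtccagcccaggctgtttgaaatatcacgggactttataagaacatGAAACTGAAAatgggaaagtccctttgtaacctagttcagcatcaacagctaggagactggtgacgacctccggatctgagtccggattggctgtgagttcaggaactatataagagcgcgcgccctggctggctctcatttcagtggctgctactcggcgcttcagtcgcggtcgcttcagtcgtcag

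This motif, searched on both strands, was in 3.44% of all promoters and in 9 of 27 promoters (33.3%) of the MHC class I and interferon lists, from 23 of 30 genes with a promoter in the table. It was in 5.44% of the promoters of genes at least 2-fold higher and in 2.02% of those at least 2-fold lower.

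**Figure D2:**
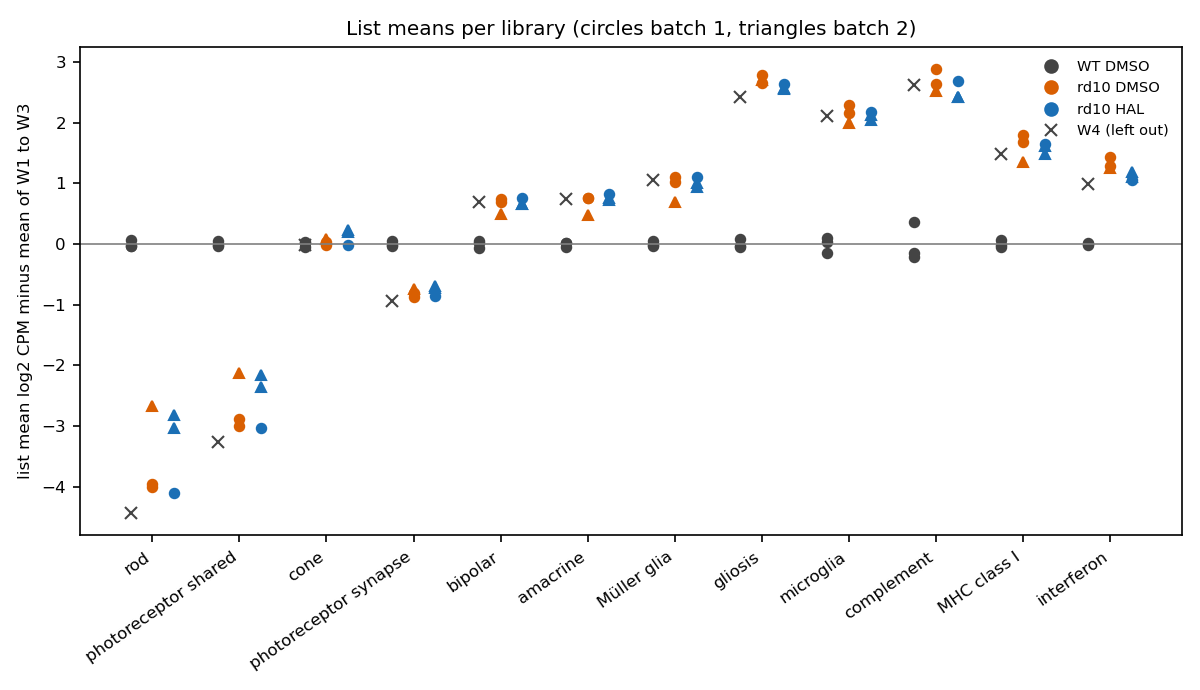
Mean log2 CPM of each of 12 gene lists in each library, minus the mean of W1 to W3; circles are batch 1, triangles batch 2, and the cross is W4, which was left out. The rd10 HAL libraries lie beside the rd10 DMSO libraries on every list, the rod list is higher in the batch 2 libraries, and W4 lies with the rd10 libraries on 11 of the 12 lists, the cone list alone not separating WT from rd10.

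Among metabolic genes, of 21 glycolysis genes, 11 fell, 5 rose and 5 were not called (median -0.22), where 36.2% of all genes fell and 35.7% rose. Slc16a1, the lactate and pyruvate transporter MCT1, fell from 258, 274 and 284 CPM to 85.4, 93.1 and 85.6 CPM (-1.63 ± 0.06, adjusted p 5.36e-07, edgeR), beside 103, 98.4 and 111 CPM in rd10 DMSO. Ldha, lactate dehydrogenase A, fell from 1111, 1194 and 1111 CPM to 482, 577 and 548 CPM. Pkm, pyruvate kinase, fell by 0.66 ± 0.07 and Pfkm, the muscle-type phosphofructokinase, rose by 0.59 ± 0.05, a rise that turned to -0.18 on the inner-neuron scale. Of 72 nuclear-encoded respiratory chain genes, 38 fell and none rose, against those same shares (median -0.19, beside -0.25 with DMSO). That median was 0.02 when libraries were scaled by size alone, so the direction of the list rests on the scale. Ndufa4, a respiratory chain subunit, fell from 166, 165 and 187 CPM to 83.8, 103 and 99.0 CPM (-0.85 ± 0.08). Of 80 cytosolic ribosomal protein genes, 50 fell and none rose, against the same shares (median -0.26, beside -0.33 with DMSO and -0.05 by library size alone). Neither list lay apart between the drug and DMSO: the list means were 0.10 and 0.12 higher in rd10 HAL, with overlapping libraries.

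Of 18 cholesterol synthesis genes, 11 fell with halofantrine, 1 rose and 6 were not called, where 36.2% of all genes fell. The list median was -0.29 beside -0.05 with DMSO. Idi1, an isomerase of the isoprenoid steps, read 49.1, 46.0 and 55.8 CPM in WT, 45.3, 44.7 and 40.5 in rd10 DMSO and 38.7, 36.3 and 31.3 in rd10 HAL. The fall of Idi1 from WT was called with the drug (-0.51 ± 0.10, adjusted p 0.00132, edgeR) and not with DMSO (-0.20, adjusted p 0.087). The direct difference between the rd10 groups was -0.30 ± 0.10 (unadjusted p 0.0166, adjusted p 0.883, edgeR). The list mean was 5.50 to 5.82 log2 CPM in rd10 HAL and 5.73 to 5.86 in rd10 DMSO, overlapping ranges, and in batch 1 alone the list median against WT was -0.06.

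Stress, death and activity genes included some that rose and some that fell, and their counts are read beside the 71.9% called over all genes. Of 7 unfolded protein genes in the table, 3 rose and 1 fell. The one that fell was Atf4, the integrated stress response factor, from 232, 249 and 204 CPM to 131, 144 and 129 CPM. Of the 4 outside the table, Trib3 had every rd10 HAL library below every WT library, at 3.38 to 3.59 CPM beside 5.25 to 6.25 CPM, and the other 3 overlapped WT. Over the 11699 genes tested, rd10 HAL and WT libraries did not overlap for 8921, with rd10 HAL higher for 4405 of them. Herpud1, which helps clear misfolded protein from the endoplasmic reticulum, rose by 0.54 ± 0.06 and lay 0.23 lower on the inner-neuron scale. Of 9 cell death genes in the table, 4 rose and 2 fell, none of them by 2-fold. Of the 8 outside it, read from transcript counts, 5 had every rd10 HAL library above every WT library (Casp1, Casp8, Gsdmd, Ripk3 and Bbc3), beside 37.7% of the genes tested. Casp8, the caspase of death receptors, read 0.57, 0.91 and 0.88 CPM in WT, 3.52, 3.04 and 3.63 in rd10 DMSO and 2.52, 1.98 and 3.32 in rd10 HAL. Bbc3, the BH3-only protein PUMA, read 1.80, 1.71 and 1.58 CPM in WT, 2.46, 2.26 and 1.42 in rd10 DMSO and 4.11, 2.96 and 3.56 in rd10 HAL. Its rd10 HAL libraries lay above all others at these low levels, and Bbc3 was not tested. The rd10 groups did not overlap for 13.1% of the genes tested between them. Bcl2l1, which restrains apoptosis, rose by 0.30 ± 0.05 and was 0.47 lower on the inner-neuron scale. Of 7 immediate early genes in the table, 4 rose and 1 fell, and Egr1, an activity-induced transcription factor, rose from 16.2, 18.9 and 17.7 CPM to 55.1, 56.4 and 65.9 CPM (1.75 ± 0.09). Of the 5 outside it, Fosb, Egr2, Egr3 and Arc had rd10 HAL libraries above all WT libraries and Npas4 did not, against that same share. Egr3, an Egr1 relative, read 0.90, 0.76 and 1.87 CPM in WT, 5.28, 5.92 and 6.34 in rd10 DMSO and 4.29, 4.54 and 3.59 in rd10 HAL. Among the genes in the table, the medians of all 3 lists turned negative on the inner-neuron scale (-0.61, -0.55 and -0.55).

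**Figure D3:**
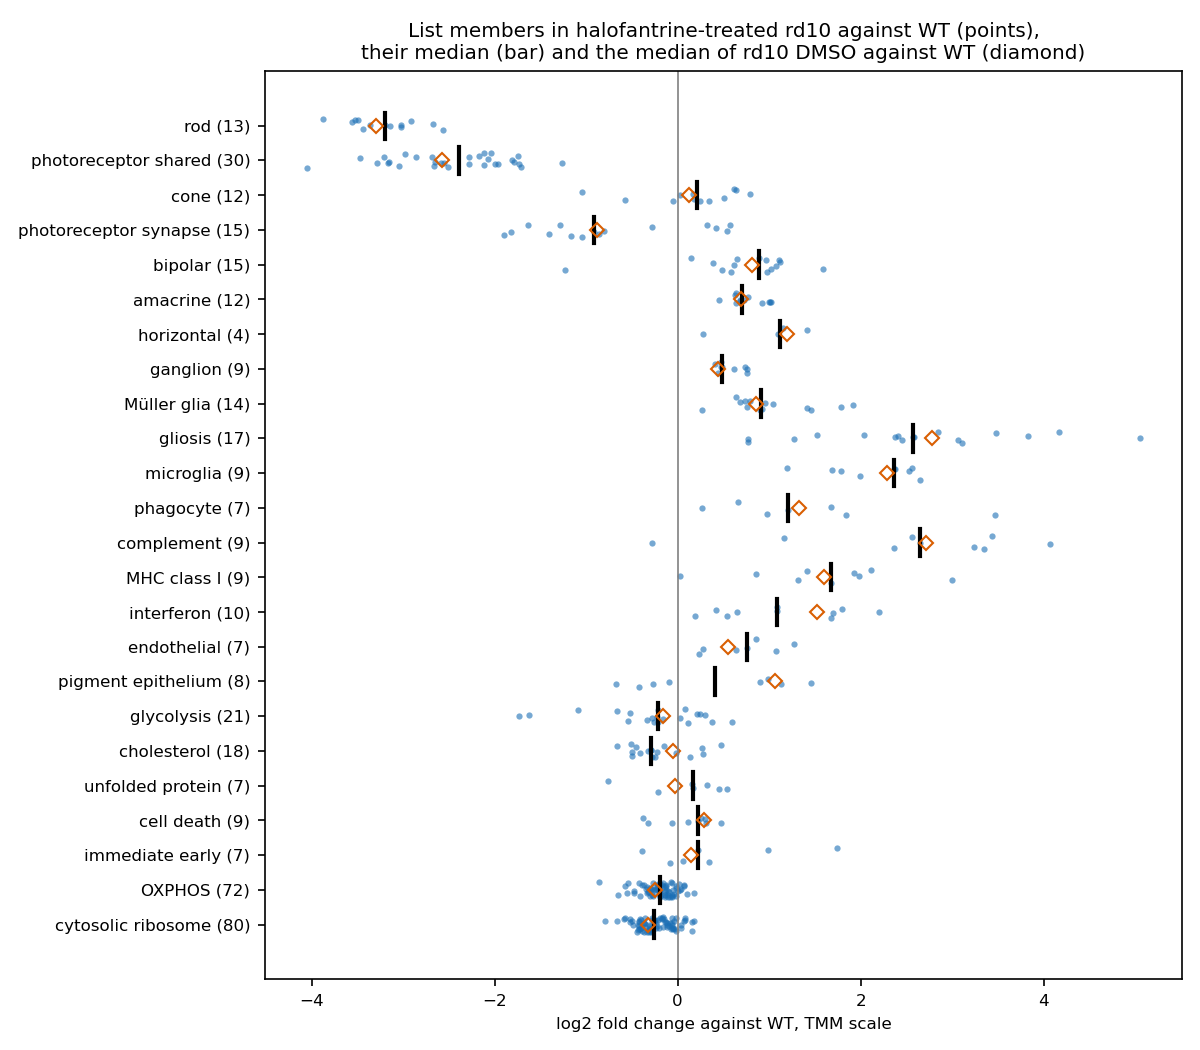
Log2 fold change against WT (TMM scale) of each member of 24 gene lists in rd10 HAL (points), with the list median (bar) and the median for rd10 DMSO against WT (open diamond); numbers in brackets count the members plotted. The blood and lens lists, with 3 and 2 genes tested, are not plotted. Of the 24 plotted, bars and diamonds lie furthest apart for pigment epithelium (0.41 and 1.07) and interferon (1.09 and 1.52).

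Outside the photoreceptor lists, the largest rises by size among genes with a symbol were Gm45861, Serpina3n, A2m, C4b, Lcn2, Steap4, Lyz2, C3, Mt2 and Togaram2. A2m, a broad protease inhibitor, rose from 10.8, 9.48 and 18.6 CPM to 269, 190 and 231 CPM (4.17 ± 0.23). Mt2, a metallothionein, rose from 9.58, 13.1 and 10.6 CPM to 112, 124 and 122 CPM (3.43 ± 0.10). Among the largest falls, Hdc, the histamine-forming decarboxylase, went from 22.9, 21.2 and 20.4 CPM to 0.30, 0.64 and 0.42 CPM (-5.53 ± 0.20), and Pdzph1 from 396, 400 and 415 CPM to 11.7, 33.7 and 14.7 CPM (-4.32 ± 0.34). Gm45837, a predicted gene, read 10.6, 7.81 and 10.7 CPM in WT, 0, 7.58 and 5.23 CPM in rd10 DMSO and 0.04, 0.03 and 0 CPM in rd10 HAL. It was low in all 3 drug libraries and also in D1, and it was the only gene still called with W4 included, where it read 10.7 CPM.

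The disease changes were measured as the genes called at 2-fold or more between rd10 DMSO and WT, 1390 of 11696 genes tested (11.9%), 626 higher (5.35%) and 764 lower (6.53%). Under halofantrine 1373 of them (98.8%) were still called in the same direction, where 71.9% of all genes were called in either direction. The kept genes were 620 of 626 higher genes (99.0%) and 753 of 764 lower genes (98.6%), and 1158 (83.3%) still differed by at least 2-fold. Counted from the other side, 1339 of the 1366 genes (98.0%) at 2-fold with halofantrine were called with DMSO, where 62.2% of all genes were. The same 3 WT libraries enter both comparisons, which ties the lists together, so no p-value is given for the overlap. Directly between rd10 HAL and rd10 DMSO, 0 of 11692 genes were called by edgeR, with a smallest adjusted p of 0.883, and 557 genes (4.76%) had an unadjusted p under 0.05. With batch as a term over 9 libraries, 0 of 11700 genes were called by edgeR, with a smallest adjusted p of 0.139, and 2437 genes (20.8%) had an unadjusted p under 0.05. The limma-voom fit called 0. DESeq2 called 3, which were Gm42047 and a pair of unnamed loci with identical counts. Leaving out D2 gave 7 calls, with Pmel, Tyrp1, Dct and Gpnmb of pigmented cells among them, and leaving out D1 gave 1, Gm45837. In batch 1 alone Gm28438 and Pgam1-ps2 were called.

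The 17 disease genes not kept were few, and most moved together by library. Besides Opn1sw, they held Tyrp1, the melanin enzyme, which read 68.0, 9.58 and 98.2 CPM in rd10 DMSO and 13.8, 12.7 and 17.3 CPM in rd10 HAL, from 3.65, 3.43 and 15.5 CPM in WT. D1, D3 and W3 were the high libraries of their groups. Ccnd2, Wls, Cpxm2 and Slc6a20a were high in the same D1, D3 and W3. Hba-a1, an alpha globin, and Mir6236 were high in H2 and H3, where Mir6236 read 103 and 64.5 CPM against 11.5 CPM in H1 and 13.2 to 24.1 CPM in WT. The unnamed loci among the 17 were also higher in H2 and H3 than in H1. The most abundant of them read 261 and 158 CPM in H2 and H3 against 33.6 CPM in H1. Mir6236 rose in rd10 HAL against WT by 1.80 ± 0.64 (adjusted p 0.0304, edgeR), and in batch 1 alone it was 0.58 lower and not called. It was not called without any one of W1, W3, H2 or H3.

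Disease changes whose rd10 groups did not overlap made up no larger a share than among all genes, and none passed the test against DMSO. The rd10 groups did not overlap for 10.9% of the 615 genes with a symbol raised at least 2-fold by disease and for 10.4% of the 712 lowered, beside 13.1% over all genes. The rd10 HAL libraries were on the WT side for 62 of the raised genes and 62 of the lowered, and on the far side for 5 and 12. Choosing genes by a large difference of rd10 DMSO from WT favours the WT side by itself, so nothing is read from that split. Aldh1a1, a retinaldehyde dehydrogenase, read 46.9, 45.4 and 57.6 CPM in WT, 157, 148 and 129 in rd10 DMSO and 112, 115 and 97.1 in rd10 HAL. Adamts1, a secreted metalloprotease, read 61.0, 68.5 and 62.3 CPM in rd10 DMSO and 47.7, 50.3 and 54.0 in rd10 HAL, from 26.2 to 28.8 in WT. Il1r1, the interleukin-1 receptor, read 25.3, 26.3 and 26.0 CPM with DMSO and 21.1, 20.9 and 21.8 with halofantrine, and Irgm1, an interferon-inducible GTPase, 15.2, 15.9 and 14.0 and then 11.5, 11.5 and 11.6. Tagln2, an actin-binding protein, was lower with the drug by 0.39 ± 0.09. These 5 genes differed from rd10 DMSO by -0.43 to -0.28, at unadjusted p of 0.00249 to 0.00422 and an adjusted p of 0.883 (edgeR), and all 5 were still called above WT. Among lowered genes, Pitpnm1, a phosphatidylinositol transfer protein, read 1067, 1136 and 1062 CPM in WT, 423, 437 and 444 in rd10 DMSO and 495, 526 and 560 in rd10 HAL. Apba3, Nop53 and Bub1b lay 0.36 to 0.58 above rd10 DMSO with adjusted p of 0.883, and were called below WT, Bub1b not without any one of W1, W2 or H3. The genes were taken by their order in the same contrast, so their values are a description.

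**Figure D4:**
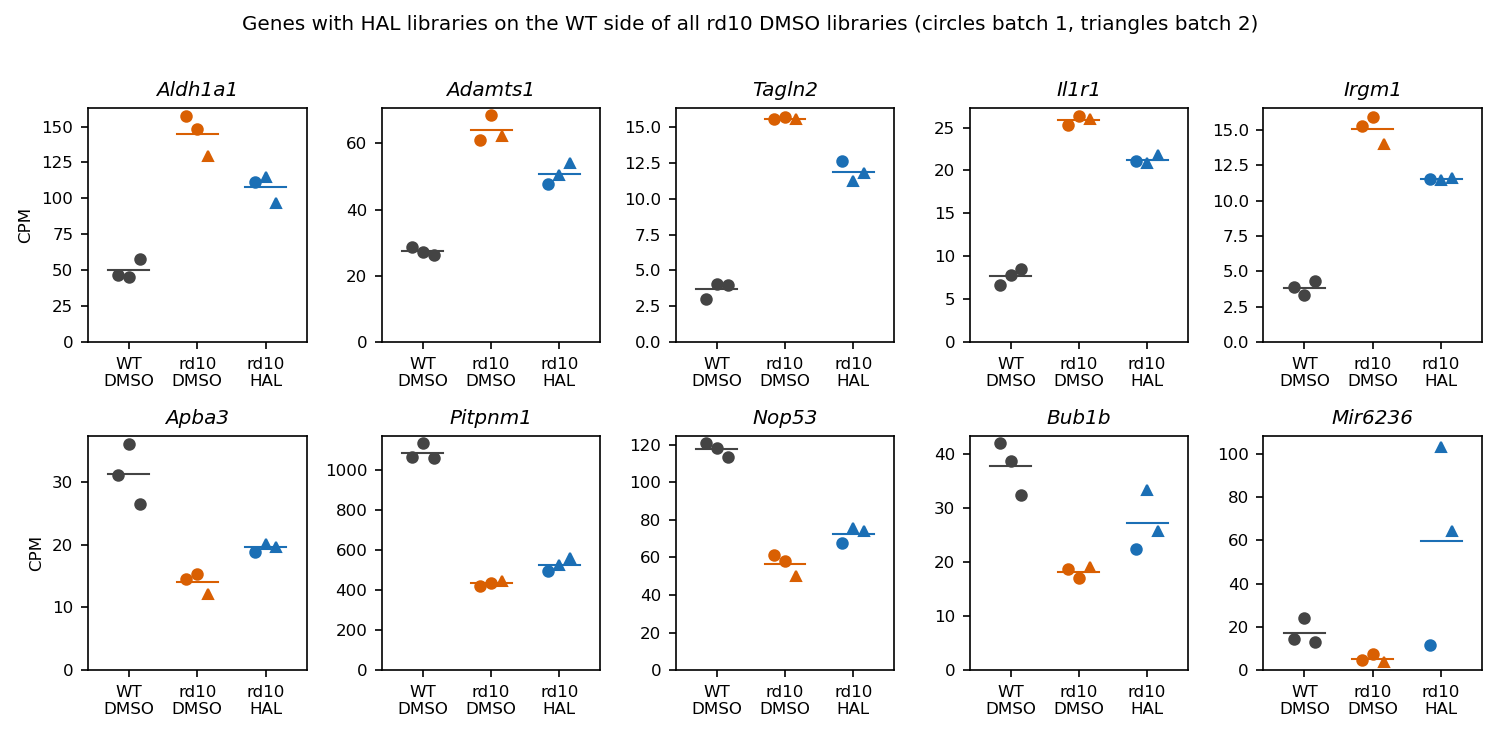
CPM (axes from 0) of 10 genes, the 5 per direction with the smallest p between rd10 HAL and rd10 DMSO among disease changes with a gene symbol whose rd10 HAL libraries all lie on the WT side of all rd10 DMSO libraries; circles are batch 1, triangles batch 2 and lines group means. The top row shows genes raised by disease and the lower row genes lowered by it, and Mir6236 is high only in H2 and H3.

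Changes from WT that were called only with the drug were looked at last. Of the 8408 genes called in rd10 HAL, 281 with a symbol were not called in rd10 DMSO and had rd10 HAL libraries all on one side of rd10 DMSO. Over all genes tested between the rd10 groups, 13.1% had libraries that did not overlap. In 218 of the 281, D3 was the rd10 DMSO library farthest from the rd10 HAL mean, and without D3 117 of them were called in rd10 DMSO too. The share over all genes was not computed for either D3 count, so they are a description. D3 was the shallowest library and the only rd10 DMSO library of batch 2. Rusc2 read 90.8, 93.2 and 89.7 CPM in WT, 131, 121 and 82.3 in rd10 DMSO and 140, 138 and 139 in rd10 HAL. Slc32a1, the GABA and glycine vesicle transporter of amacrine cells, read 63.5, 69.3 and 58.8 CPM in WT, 111, 109 and 52.5 in rd10 DMSO and 128, 120 and 115 in rd10 HAL. Ahdc1, Map7d1 and Col2a1 had the same form, and all 5 were called in rd10 DMSO without D3. On the inner-neuron scale Rusc2 and Map7d1 were called below WT in rd10 HAL (-0.16 and -0.14). Ahdc1 (-0.08), Slc32a1 (0.15) and Col2a1 (0.02) were not called on that scale. A call with one treatment and not the other does not show that the treatments differ, and none of the 5 was called between them (edgeR, adjusted p of 0.883 or more). In rd10 HAL the 5 lay 0.30 to 0.41 above rd10 DMSO. The difference was 0.08 to 0.15 without D3 and 0.42 to 0.67 with batch as a term, with no call in either.

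Vps37d, Map3k10 and Itpr3 are included because the study names them. Vps37d, a subunit of the endosomal sorting complex ESCRT-I, read 6.31, 7.46 and 6.42 CPM in WT, 8.19, 7.38 and 4.98 in rd10 DMSO and 11.1, 12.2 and 10.5 in rd10 HAL. Its rd10 HAL libraries lay above all others, by 0.74 ± 0.12 from WT (adjusted p 0.000533, edgeR) and 0.70 ± 0.19 from rd10 DMSO (unadjusted p 0.00654, adjusted p 0.883). Map3k10, a mixed-lineage kinase, read 56.7, 59.0 and 51.8 CPM in WT, 52.9, 51.8 and 31.7 in rd10 DMSO and 59.2, 66.0 and 63.1 in rd10 HAL. Its difference from WT was 0.17 ± 0.07 (adjusted p 0.043, edgeR), and it was not called without any one of W1, W3, H2 or H3 or in batch 1 alone. Its rd10 HAL libraries lay above all rd10 DMSO libraries, by 0.46 ± 0.18 (unadjusted p 0.0373, adjusted p 0.883, edgeR). Without D3 that difference was 0.27. Itpr3, an IP3 receptor of calcium stores, rose from 4.08, 4.13 and 6.13 CPM in WT to 12.9, 14.8 and 15.5 CPM (1.60 ± 0.17), beside 12.4, 9.48 and 13.8 CPM in rd10 DMSO, from which it differed by 0.28 ± 0.16 (unadjusted p 0.113, adjusted p 0.883, edgeR). Vps37d and Map3k10 reversed to -0.03 and -0.604 on the inner-neuron scale.

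Markers of neighbouring tissue varied by library. Summed over 12 genes, pigment epithelium markers were 66.2 to 365 CPM in WT, 221 to 772 in rd10 DMSO and 179 to 302 in rd10 HAL. Of the 8 that were tested, Pmel and Dct were called higher with halofantrine, where 35.7% of all genes were. Neither was called in batch 1 alone. Pmel read 5.69, 5.14 and 16.9 CPM in WT, 116, 12.8 and 147 in rd10 DMSO and 22.1, 24.8 and 27.9 in rd10 HAL. Globin and Alas2 transcripts summed to 37.9 to 68.2 CPM in WT, 16.6 to 32.8 in rd10 DMSO and 12.7 to 104 in rd10 HAL, with H2 and H3 high. The 11 lens genes summed to 33.7 CPM in H2 and to 11.1 CPM or less in the other 8 libraries, and no list had a member at 0 in all 3 rd10 HAL libraries. The part of these tissues in the results was not tested. Of 7 endothelial genes measured, 5 rose, beside 35.7% of all genes (median 0.76, and -0.01 on the inner-neuron scale). Kdr, a VEGF receptor, rose from 170, 153 and 163 CPM to 451, 363 and 363 CPM, and Flt1, another, by 1.07 ± 0.07. Of the 3 genes outside the table, Cdh5 was above WT in every rd10 HAL library, as were 37.7% of the genes tested. Tek and Tie1 overlapped WT. The endothelial list mean was 4.87 to 5.02 log2 CPM in rd10 HAL and 4.71 to 4.84 in rd10 DMSO, with no overlap and a difference of 0.18.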

How the data were processed

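Bulk poly(A) RNA-seq of retina was analysed. Estimated counts per gene and per transcript were deposited by the authors, who per the labels and the study's methods aligned reads with kallisto to an Ensembl mouse transcriptome (GRCm39) and summarised them with tximport; the labels also name edgeR and limma. The deposited table held 11702 genes, and the filter behind it is not given in the sources used here. The authors' normalised table and their comparison table (fold changes and p-values) were not used.

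Estimated counts were rounded, filtered with filterByExpr, TMM-scaled and tested with edgeR 4.0.16 (quasi-likelihood, no covariate, Benjamini-Hochberg, threshold 0.05) in R 4.3.3, with 6 libraries per comparison. Levels are CPM with TMM; list means use log2 CPM with a prior count of 2. Errors of fold changes are SE. Alternatives used limma 3.58.1 (voom), DESeq2 1.42.0, other scalings and filters, W4 included, a batch term, batch 1 alone and each library left out. Depth was 15512212 to 38160436 estimated counts per library. In simulated data for rd10 HAL against WT (11699 genes, 200 changed), all changed genes of 2-fold (100%) and 85.0% of 1.5-fold were called, with 13 false calls. Far more genes, 8408, were called in the data, so the simulation does not check the scale or the error rate there. The comparison of rd10 HAL with rd10 DMSO was not simulated. No replicate pair agreed within counting noise.

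Members and gene lists were chosen with earlier results of these data known. Named genes were up to 4 per list by p in rd10 HAL against WT (by WT level for photoreceptor lists), with Pde6b, Reep6, Arr3 and Gfap; the 10 largest changes per direction at 5 CPM or more; 5 per direction by p between rd10 groups among changes nearer to WT; 5 called only with the drug; and 3 genes the study names. Some genes the rule names are not reported here. Opn1sw and the genes not kept were chosen after their values were seen. Genes read from transcript counts were named outside these rules. Symbols matched 11492 of the gene IDs. Promoters are RefSeq windows of GRCm38.p6; the counts use GRCm39, and no coordinates were moved between them.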

Additional observations from a re-analysis of the deposited data

Results flagged for a closer look

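W4, labelled WT, stood apart from W1 to W3 in 13 of the 26 list means. The gap between W4 and the nearest other WT library, as a share of the range of the 4, was 0.976 for rod genes, 0.973 for genes shared by rods and cones and 0.917 for photoreceptor synapse genes. W4 was left out because it held few rod transcripts, so the values of these photoreceptor lists restate that choice and test nothing. The other lists were not named in that choice. A low share of rod transcripts changes the shares of all other transcripts in the library, so these lists are not independent of it. The gap was 0.858 for bipolar, 0.909 for amacrine, 0.975 for horizontal and 0.933 for ganglion cell genes. It was 0.92 for Müller glia, 0.943 for gliosis, 0.89 for microglia, 0.922 for MHC class I, 0.965 for interferon and 0.877 for glycolysis genes. Chance passes the 95% critical value of Dixon's test in about 1 of 20 groups, and lists that share a library are not independent. Counts of W4 differed from those of W1 to W3 by a chi-square of 421 to 431 per gene, against 4.48 to 10.2 among W1 to W3. Gnat1 read 501 CPM and Gfap 258 CPM in W4. The library goes against its label on these genes; the cause was not tested.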

How the results depend on the processing

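The calls against WT rest on leaving out W4: with it, 1 gene was called in rd10 HAL against WT (4050 at an unadjusted p under 0.05), 0 in rd10 DMSO against WT, 0 disease changes could be counted as kept, the pigment epithelium list was at -0.18 and Tyrp1 at -0.0222. Without it, rd10 HAL against WT gave 7625 to 9892 calls over the other settings that keep all or some of the remaining libraries. The range on leaving out 1 library was 7648 to 8234 for rd10 HAL against WT, 6154 to 8460 for rd10 DMSO against WT, 0 to 7 between rd10 groups and 1279 to 1564 for kept changes. Between rd10 groups DESeq2 gave 3 and batch 1 alone 2. Scaling to inner neurons kept 3127 of 3149 and reversed the lists of pigment epithelium (-0.37), cone -0.56, amacrine -0.0668, ganglion -0.29, endothelial -0.0124, unfolded protein -0.61, cell death -0.55 and immediate early -0.55. Genes reversed by it were Arr3 -0.599, Gnb3 -0.16, Cnga3 -0.13, Gad1 -0.13, Rbpms -0.0101, Pou4f1 -0.0182, Hba-a2 -0.24, Pfkm -0.18, Herpud1 -0.23, Bcl2l1 -0.47, Gsdme -0.30, Rusc2 -0.16, Ahdc1 -0.0838, Map7d1 -0.14, Vps37d -0.0284 and Map3k10 -0.604. Library size alone put the respiratory chain list at 0.0168. A batch term reversed Hba-a2 (-0.63) and Cryaa (-2.85), and voom Cryaa (-2.01). Batch 1 alone reversed the cone (-0.0129) and blood (-2.05) lists, Arr3 (-0.10), Hba-a2 (-1.75), Cryaa (-8.13) and Mir6236 (-0.58). Leaving out 1 library, the lens list ranged from -3.62 (without H2) to 2.12 and Cryaa from -4.91 (without H2) to 2.30. The cause of these shifts was not tested. Over 101 named genes and 17 settings, 1555 of 1714 values kept direction and call, 11 gained a call, 25 reversed and the others lost the call. Of the lost calls, 95 came with W4. No paired analysis was possible because the labels give no number or animal that pairs libraries across the groups. With D3, the shallowest library, 7280 genes were called in rd10 DMSO against WT, and without it 8460.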
